A study of Mus musculus with 12 samples.

Results

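The regions described here are the AGO2 peaks of mouse tibialis anterior (TA) muscle that lie in a 3′ UTR and hold a match to the seed of the miR-30 family. AGO2 is the Argonaute protein that carries a microRNA to its target RNA, and a peak is a stretch of RNA where reads from cross-linked and immunoprecipitated AGO2 pile up. A peak was chosen where its midpoint lay in an annotated 3′ UTR outside coding sequence and where the peak, extended by 25 nt on each side, held on its own strand the 7-nt word complementary to positions 2 to 8 of miR-30a-5p (TGTTTAC in the genome's letters). No threshold on the signal was used, so the folds described below played no part in the choice. The 4 libraries listed 713343 peaks in all, of which 98940 lay in 3′ UTRs and 3405 of these held the word. Those 3405 peaks are called miR-30 peaks here, a name for the word they hold: the lists do not say which microRNA was bound.

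Chimeric eCLIP of AGO2, in which some microRNAs are ligated to the RNA they pair with, was performed on TA muscle of male wild-type (WT) mice and of mice without mir-486 (mir-486 KO), aged 6 months. Each of 2 library sets, called set 1 and set 2 here, held 1 total immunoprecipitated library per genotype and an input library for each, which is RNA taken before the immunoprecipitation. The labels give C57BL/6 as the strain of WT and FVB N/J with the genotype miR-486-/- for mir-486 KO, so that genotype and named strain cannot be told apart. The study's methods instead describe repeated backcrossing to C57BL/6J, and which of these holds for the libraries could not be settled. The deletion was made by CRISPR and removes the hairpin within the host gene Ank1. The methods count 3 muscles per genotype and speak of duplicates, while the labels have 2 total immunoprecipitated libraries per genotype. Neither source says whether the sets came from different mice, from pooled muscle or from repeat runs, so an SD over libraries may not be a spread between animals. Libraries further enriched for miR-486 were not analysed here. Read counts are not part of the lists, and the absolute depth of a library is unknown.

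The miR-30 microRNAs are a family encoded by 6 mouse genes in 3 pairs, Mir30a with Mir30c-2, Mir30b with Mir30d and Mir30c-1 with Mir30e. All members share the seed, the bases near the 5′ end that pair with target RNA and largely set which RNAs are bound. Pairing usually takes place in the 3′ UTR and lowers the stability and translation of the target, and a target is typically bound better where an A stands opposite position 1 of the microRNA. The family is abundant in skeletal and cardiac muscle.

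The RefSeq table for GRCm38.p6 held the mature sequences of 3 family members, encoded by 4 of the genes. They are shown 5′ to 3′ with seed positions 2 to 8 in capitals, because the word that defines the miR-30 peaks is the complement of those capitals:
miR-30a-5p: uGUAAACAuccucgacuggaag
miR-30c-5p: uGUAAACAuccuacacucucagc
miR-30e-5p: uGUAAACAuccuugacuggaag
Mir30b and Mir30d are named only.

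Of the 1383 distinct places in the genome where a miR-30 peak covered the word, called sites here, 5 lay under enriched peaks in all 4 libraries, and 4 of these are shown with 18 nt before the word, the word in capitals and 5 nt after it (GRCm38, on the strand of the gene). The upstream Plagl2 word lies at chr2:153230846-153230852 and the downstream one at chr2:153230759-153230765, both on the minus strand. The Mmd word lies at chr11:90277135-90277141 and the Stim2 word at chr5:54119114-54119120, both on the plus strand:
Plagl2 upstream: agtgattgcagtgaacacTGTTTACacacc
Plagl2 downstream: tggtgttaactggagcccTGTTTACaaggc
Mmd: agagacttggccaactgaTGTTTACaaacc
Stim2: gggcttgcaaaattttctTGTTTACcagaa
The 3′ UTR of Tnrc6a, which encodes the GW182 protein that AGO2 recruits to silence its targets, is shown because 4 words in it lay under miR-30 peaks. They lie on the plus strand at chr7:123193385-123193391, chr7:123193673-123193679, chr7:123193712-123193718 and chr7:123194472-123194478:
Tnrc6a word 1: cagctgttccagtgtagaTGTTTACtcaag
Tnrc6a word 2: tcccacggtgaaccttctTGTTTACagatt
Tnrc6a word 3: gttttttgagaaaaaaaaTGTTTACtcttc
Tnrc6a word 4: aggtcagtggcttttaacTGTTTACaatag
In both Plagl2 sites, in Mmd and in words 2 and 4 of Tnrc6a the base right after the capitals is A, the base opposite position 1 of the microRNA. A word followed by A is called an 8-nt site, and any other word a 7-nt site.

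The labels were checked at the targeted locus. On the strand of Mir486 the WT libraries had 2 listed peaks in set 1 and 4 in set 2, all enriched, and both mir-486 KO libraries had 0. All 8 skeletal muscle markers had listed peaks in each library, between 1018 and 2120 peaks in all. The 5 macrophage markers had between 20 and 103 peaks, the 4 endothelial markers between 33 and 190 and the 4 fibroblast markers between 98 and 275, so RNA of other cells was present, and the 4 red blood cell markers had between 6 and 11. The 3 B cell markers had 12 peaks in the WT library of set 2 and 0 in the other libraries. What part such cells had in the results was not tested. Each of the 6 Mir30 genes had at least 1 listed peak in every library, and the highest log2 fold over input at a gene lay between 6.01 and 10.3.

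The first question was how often an AGO2 peak in a 3′ UTR held the word. In set 1, 714 of 17853 3′ UTR peaks of the WT library held it, 3.999% (95% Wilson interval 3.72% to 4.30%), and 593 of 21911 of the mir-486 KO library, 2.71% (2.5% to 2.93%). In set 2, 1049 of 29862 of the WT library held it, 3.51% (3.31% to 3.73%), and 1049 of 29314 of the mir-486 KO library, 3.58% (3.37% to 3.80%). The mean was 3.45% ± 0.540 (SD, n = 4 libraries). The intervals cover counting error only, and neighbouring peaks share RNAs, so they are too narrow for peaks of 1 RNA. The share was lowest in the mir-486 KO library of set 1 and highest in the WT library of set 1. Such a share also depends on peak length, which differed between the libraries.

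Every order of the same 7 letters was then searched in the same peaks, which gave 209 permuted words of equal base composition. The median permuted word was held by 1.09% of 3′ UTR peaks in the WT library of set 1, 1.11% in the mir-486 KO library of set 1, 1.38% in the WT library of set 2 and 1.26% in the mir-486 KO library of set 2. The most frequent permuted word, TTTCTGA in all 4 libraries, was held by 2.34%, 2.39%, 3.01% and 2.75% in the same order. The miR-30 word was thus more frequent than each of the 209 permuted words in every library. It was 3.66, 2.44, 2.54 and 2.84 times as frequent as the median permuted word, and 3.19, 2.31, 2.30 and 2.53 times against the 179 permuted words without CG, a pair of letters that is rare in mammalian genomes. Counted per length, the word occurred 0.318, 0.216, 0.223 and 0.233 times per 1000 nt of distinct scanned sequence, against permuted medians between 0.0808 and 0.0868. By this count the WT library of set 1 stood highest, and the mir-486 KO library of set 1 lay near the libraries of set 2.

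**Figure D1:**
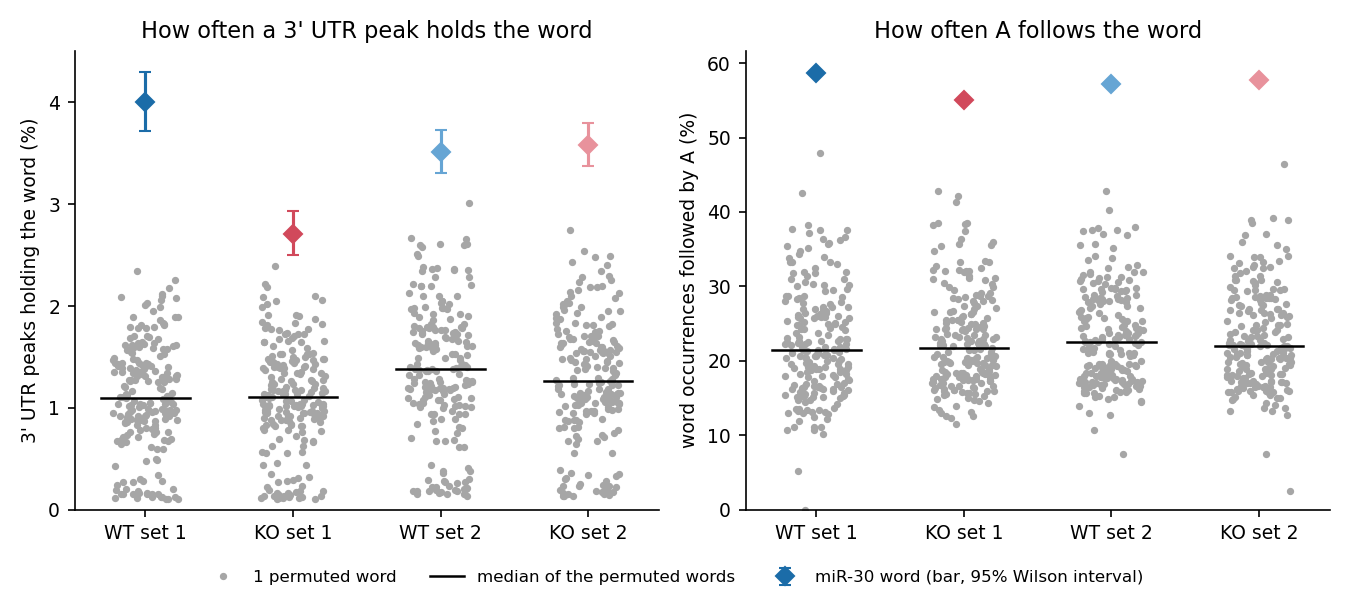
The left panel plots the percent of 3′ UTR peaks that hold a word, for each library, and the right panel the percent of occurrences of a word that are followed by A, with grey points for the 209 permuted words, black lines for their medians and diamonds for the miR-30 word (bars in the left panel, 95% Wilson intervals). The diamonds, between 2.71% and 3.999% on the left and between 55.0% and 58.7% on the right, lie above every grey point of their library.

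The next base was not part of the rule, and it was A at most sites. A followed the word at 58.9% of 722 distinct sites in the WT library of set 1 and at 55.7% of 576 in the mir-486 KO library of set 1. In set 2 it followed 57.9% of 1030 sites in the WT library and 58.6% of those in the mir-486 KO library. Sites of the permuted words were followed by A in 22.6%, 22.8%, 23.6% and 23.4% of cases in the same order. The highest single permuted word reached 47.9%, counted over all its occurrences, where the miR-30 word stood at 58.7%. Of the permuted words, 29 end in C as the miR-30 word does. Their occurrences were followed by A in 31.8%, 31.1%, 31.2% and 32.1% of cases at the median and in 42.5% at most, and 0 of the 29 reached the miR-30 word in any library.

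A also followed the word often over whole 3′ UTRs, counted with or without a peak. The 3′ UTRs of genes with a listed 3′ UTR peak held the word 2634 times, and 1242 of these, 47.2%, were followed by A, against a median of 32.7% and a maximum of 40.8% for the 29 permuted words that end in C. The share at sites under peaks was between 8.58 and 11.7 percentage points above this 47.2%. Of the 2634 words, 52.0% lay under a miR-30 peak in at least 1 library. The 47.2% thus includes the sites themselves and is not a value for words outside peaks. The base composition further away differed little: the median AU content of the 30 nt on each side was between 58.3% and 60.0% at the sites, against 58.3% at permuted words.

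Looked at from the RNA, 27.3% of the 2634 words lay under a miR-30 peak in the WT library of set 1, 21.8% in the mir-486 KO library of set 1, 38.8% in the WT library of set 2 and 38.3% in the mir-486 KO library of set 2. In at least 1 library, 52.0% did. Permuted words were covered less: their medians were 9.62%, 11.9%, 19.7% and 17.8%, and none of the 209 reached the miR-30 value in any library. Words followed by A were covered more often than the others. The WT library of set 1 covered 34.1% of the 8-nt and 21.3% of the 7-nt words, and the mir-486 KO library of set 1 covered 25.8% and 18.2%. In set 2 the WT library covered 47.7% and 30.9%, and the mir-486 KO library 47.7% and 29.96%.

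The word tended to lie inside the peak. It was wholly within the peak before extension in 76.8% of occurrences in the WT library of set 1, 63.5% in the mir-486 KO library of set 1, 78.6% in the WT library of set 2 and 78.5% in the mir-486 KO library of set 2. For permuted words the shares were 56.9%, 56.5%, 65.97% and 63.96%. The median distance of the word's first base from the 5′ end of the peak was 45, 39, 63 and 58 nt, against 38, 34, 55 and 51 nt for permuted words. From the peak midpoint to the word's middle base the medians were 2, 0.5, 0.5 and −0.5 nt for the miR-30 word. For permuted words they were −0.5, −1.5, 0.5 and −0.5 nt, so both were centred alike.

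The word was most dense just after the midpoint in the WT library of set 1 and in the mir-486 KO library of set 2. Words were placed by their middle base. In the WT library of set 1, 5.15 words per 1000 peaks fell in the 10 nt just after the midpoint, 6.68 times the mean of the permuted words. The bin centred 75 nt after it held 1.88 per 1000 peaks, 1.958 times the permuted mean. In the mir-486 KO library of set 2 the same bins held 3.38 words per 1000 peaks, 4.51 times the permuted mean, and 1.97, 2.23 times. The mir-486 KO library of set 1 had the lowest density there, with 2.69 words per 1000 peaks just after the midpoint, 3.17 times the permuted mean. Its highest density, 2.94, was in the bin centred 25 nt before the midpoint. In the WT library of set 2 the highest density, 2.91, was in the bin centred 15 nt before it. Bins far from the midpoint hold few words, for example 8 in the bin 75 nt after the midpoint in either library of set 1.

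**Figure D2:**
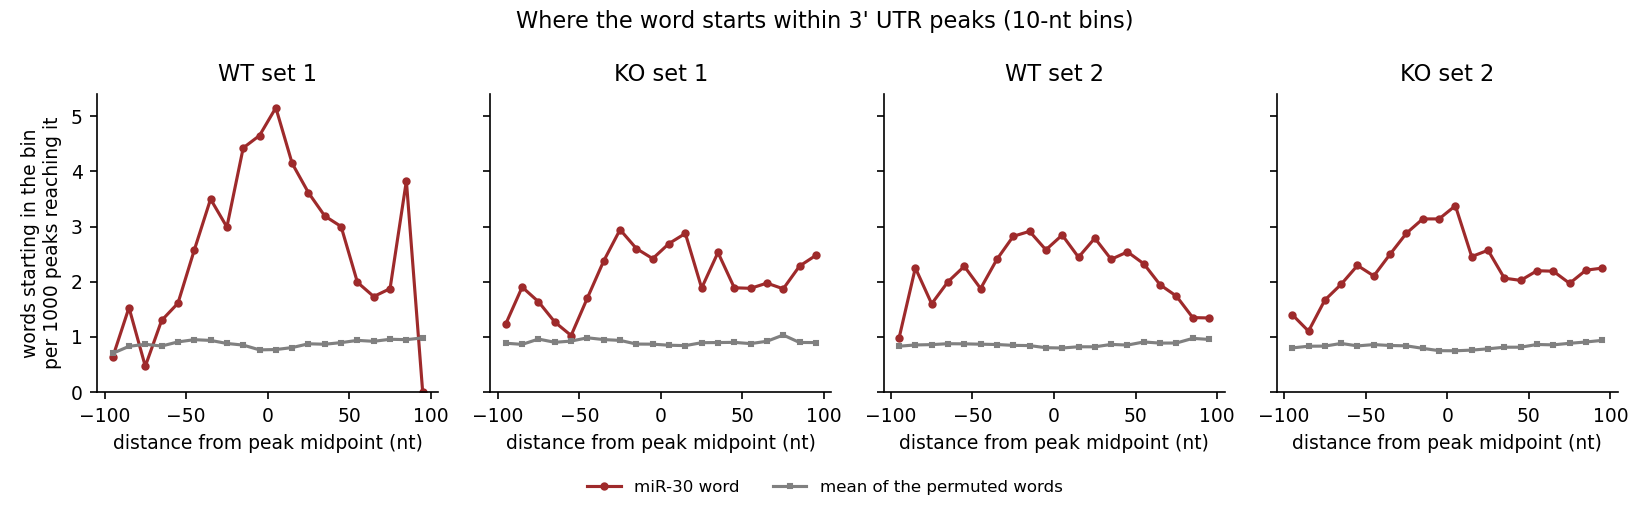
Words with their middle base in each 10-nt bin are plotted per 1000 3′ UTR peaks whose extended span reaches that bin. The x axis is the distance from the peak midpoint in nt, with 1 panel per library. The title and axis label speak of where words start, but the middle base was counted. The miR-30 word (red) rises most towards the midpoint in the WT library of set 1, to 5.15 per 1000 peaks. In the mir-486 KO library of set 1 its highest value lies before the midpoint. The mean of the permuted words (grey) stays near 1 or below.

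Within the 3′ UTR the miR-30 peaks lay less often near the start and more often near the end. Their midpoints lay within 100 nt of the start of the UTR in 6.86%, 5.73%, 6.39% and 6.58% of cases, against 9.87%, 7.95%, 9.80% and 9.78% of other 3′ UTR peaks. At the median they stood 45.6%, 49.8%, 46.6% and 46.9% of the way along the UTR. Other peaks stood at between 43.9% and 44.8%. Midpoints of miR-30 peaks lay within 100 nt of the end of the UTR in 5.18%, 5.90%, 4.29% and 4.39% of cases. The shares of other 3′ UTR peaks were 4.25%, 4.10%, 3.22% and 3.45%. Peak length differed between these groups and was not taken into account here.

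The fold over input was then compared, since the rule did not use it. It is the authors' deposited log2 ratio of the reads of a peak in the immunoprecipitated library and in its input, each scaled to its library. In the WT library of set 1 the median log2 fold was 1.46 for miR-30 peaks and 0.87 for other 3′ UTR peaks. It was 1.02 and 0.61 in the mir-486 KO library of set 1, 1.14 and 0.57 in the WT library of set 2, and 1.24 and 0.56 in the mir-486 KO library of set 2. The median was higher for miR-30 peaks in 4 of 4 libraries, by 0.56 ± 0.11 (SD, n = 4) on the log2 scale. A two-sided exact sign-flip permutation test of the 4 differences gave p = 0.13, the smallest that 4 libraries allow. Folds above 0 were found at 91.2%, 83.3%, 83.1% and 84.5% of miR-30 peaks, against 80.6%, 73.4%, 68.8% and 66.6% of other 3′ UTR peaks.

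Part of this difference went with other properties of the peaks. miR-30 peaks were longer, with median lengths of 96, 82, 138 and 136 nt against 74, 69, 102 and 97 nt, and a longer peak has more room for any word. Within 4 classes of peak length that hold equal numbers of peaks the difference in median log2 fold was 0.40 ± 0.14 (SD, n = 4 libraries). Against other 3′ UTR peaks of the same genes it was 0.31 ± 0.10, and with each gene counted once, by its highest peak, 0.15 ± 0.14. The permuted words gave median log2 folds as high as that of the miR-30 word for 29 and 7 of the 209 in the WT and mir-486 KO libraries of set 1, and for 0 in both libraries of set 2. Most of the 29 tied exactly with the miR-30 word, at 1.46, a value that recurs among the folds of that library.

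A peak is called enriched here where its deposited log2 fold was at least 3 and the deposited −log10 of its p-value at least 3. In set 1, 78 of 714 miR-30 peaks of the WT library were enriched, 10.9% (95% Wilson interval 8.84% to 13.4%), where 3.57% of all listed peaks and 5.68% of other 3′ UTR peaks were. In the mir-486 KO library of set 1, 14 of 593 were enriched, 2.36% (1.41% to 3.92%), against 0.848% of all listed peaks and 1.62% of other 3′ UTR peaks. Of the WT library of set 2, 78 of 1049 were enriched, 7.44% (6.00% to 9.18%), against 1.42% of all listed peaks and 3.398% of other 3′ UTR peaks. For the mir-486 KO library of set 2, 82 of 1049 were enriched, 7.82% (6.34% to 9.60%), against 1.23% and 3.38%. The share exceeded that of other 3′ UTR peaks by 5.24, 0.738, 4.04 and 4.44 percentage points, a mean of 3.61 ± 1.98 (SD, n = 4; two-sided exact sign-flip permutation p = 0.13). The mir-486 KO library of set 1 stood apart, with few enriched peaks of either kind.

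The enriched share did not set the miR-30 word apart from permuted words as its frequency did. Of the 209 permuted words, 45 had an enriched share at least as high in the WT library of set 1 and 135 in the mir-486 KO library of set 1, against 9 and 7 in the WT and mir-486 KO libraries of set 2. The difference from other peaks was 2.24 ± 1.48 percentage points (SD, n = 4) within the 4 classes of peak length, 2.03 ± 1.81 against other 3′ UTR peaks of the same genes and 0.524 ± 0.968 with each gene counted once. Over the 16 pairs of a length class and a library, the enriched share of miR-30 peaks was higher than that of the others in 12 and lower in 4. In the longest class 22.01%, 5.31%, 10.2% and 10.8% of miR-30 peaks were enriched, against 17.2%, 4.86%, 6.84% and 6.62% of the others. The shares went the other way in the class next to the shortest in both libraries of set 1 (0% against 1.27% in WT and 0% against 0.418% in mir-486 KO), in the class below the longest in mir-486 KO of set 1 (0.654% against 0.733%) and in the shortest class in WT of set 2 (1.74% against 1.83%).

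The form of the site went with the fold. Peaks with an 8-nt site numbered 426, 328, 609 and 614, between 55.3% and 59.7% of the miR-30 peaks. Their median log2 fold was 1.75, 1.14, 1.36 and 1.42, against 1.196, 0.80, 0.89 and 0.82 for peaks with 7-nt sites only, and so was higher in each library by between 0.35 and 0.60. The enriched share was 13.1% against 7.64% in the WT library of set 1, 8.87% against 5.45% in the WT library of set 2 and 8.96% against 6.21% in the mir-486 KO library of set 2. It was lower, 2.13% against 2.64%, in the mir-486 KO library of set 1, where 7 peaks of each form were enriched. Over the 4 libraries the difference was 2.79 ± 2.49 percentage points (SD; two-sided exact sign-flip permutation p = 0.25), above 0 in 3 of 4.

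**Figure D3:**
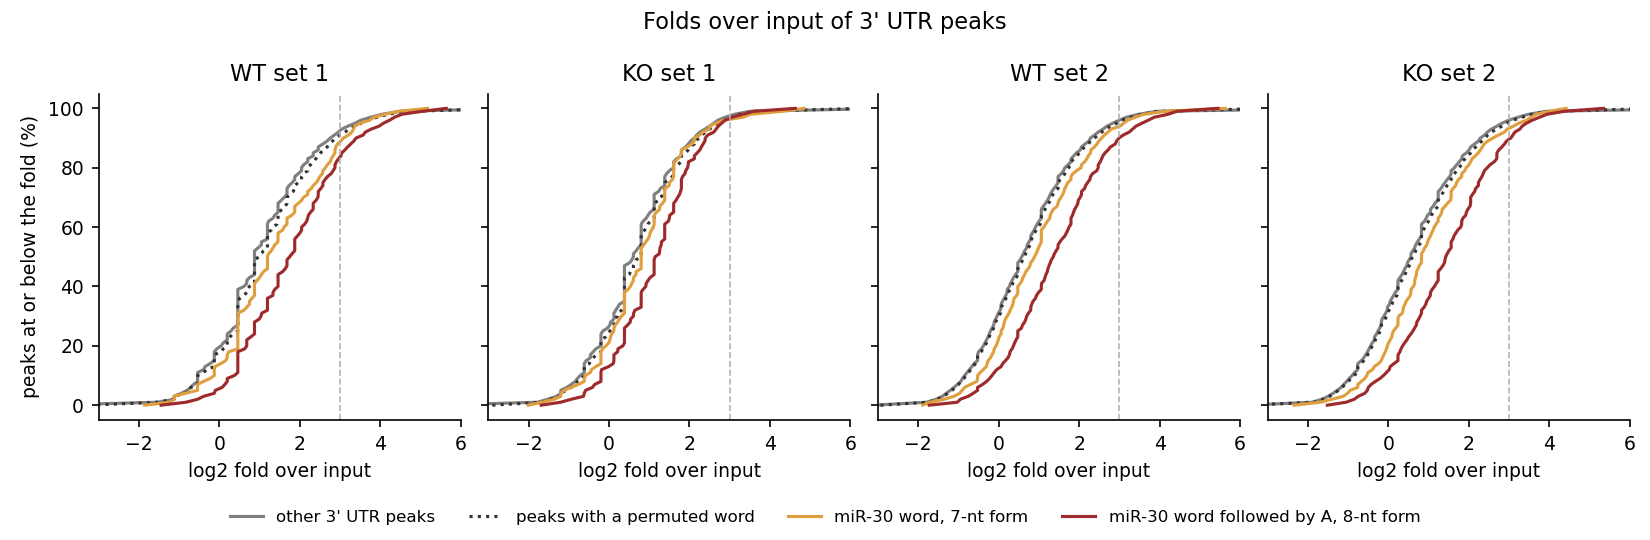
Each panel plots, for 1 library, the percent of 3′ UTR peaks at or below a given log2 fold over input, for other peaks (grey), peaks with a permuted word (dotted), and miR-30 peaks of the 7-nt form (orange) and the 8-nt form (red). The red line lies furthest to the right at the median in every panel, at 1.75, 1.14, 1.36 and 1.42, and the dashed line marks the threshold of 3.

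The peaks of the 4 libraries covered the same RNAs, so they were joined into sites. The 1383 sites lay in 1205 genes and 747 of them, 54.0%, were 8-nt sites. A miR-30 peak covered 432 sites in 1 library only, 292 in 2, 303 in 3 and 356 in all 4. Of the 356 sites found in every library 64.0% were 8-nt sites, against 43.3% of the 432 found in 1. The median of the mean log2 fold was 1.61 for the sites in all 4 libraries and 0.67 for those in 1. At 269 of the 356 the log2 fold was above 0 in all 4 libraries.

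Folds of the 356 shared sites were related across libraries. Pearson's r over sites was 0.846 between the libraries of set 2 and lay between 0.588 and 0.678 for the other 5 pairs of libraries, with Spearman's rho between 0.577 and 0.849. The sites share the libraries and their inputs, and sites under 1 peak share its fold, so these values describe the lists and are given with no p. Folds of the WT library of set 1 were the highest, by a median of 0.75 over the mir-486 KO library of set 1 and 0.50 over the WT library of set 2.

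miR-30 peaks recurred between the sets more often than other 3′ UTR peaks. Of those of the WT library of set 1, 85.2% (95% Wilson interval 82.4% to 87.6%) overlapped a listed peak of the WT library of set 2 by at least 1 nt, against 70.0% of other 3′ UTR peaks, and 80.5% overlapped another miR-30 peak. In the opposite direction 64.7% against 42.7% overlapped, where the list of set 1 is the shorter. For mir-486 KO the shares were 84.8% against 60.6% from set 1 to set 2 and 59.5% against 46.7% from set 2 to set 1. Longer peaks overlap more easily. Where at least 50% of both peaks had to overlap, the shares for WT were 50.1% against 32.3% and 35.3% against 19.3%, and for mir-486 KO 36.8% against 26.9% and 23.1% against 20.2%.

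Most sites were never enriched: 1226 of 1383 in 0 libraries, 94 in 1, 39 in 2, 19 in 3 and 5 in all 4. Of the 8-nt sites, 43 of 747 (5.76%) were enriched in at least 2 libraries, and of the 7-nt sites 20 of 636 (3.14%). The sites enriched in all 4 were those of Plagl2 (both words under 1 peak), Snx2, Mmd and Stim2.

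Plagl2 encodes a zinc finger transcription factor. Its peak had a log2 fold of 4.53 in the WT and 4.63 in the mir-486 KO library of set 1, and of 5.28 in the WT and 4.53 in the mir-486 KO library of set 2. The deposited −log10 p was 13.7, 7.55, 33.6 and 25.8. Both words are 8-nt sites and lie 639 and 726 nt into a 3′ UTR of 3733 nt. The folds of the genotypes overlapped, and no library stood far from the rest.

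Snx2 encodes a sorting nexin of the endosome. Its site, a 7-nt site at chr18:53220719-53220725 on the plus strand, had log2 folds of 5.18 and 4.84 in the WT and mir-486 KO libraries of set 1, and 4.46 and 4.42 in those of set 2. The set 1 libraries were the higher, and within each set the genotypes lay close together.

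Mmd, a membrane protein of the progestin and adipoQ receptor family, had an 8-nt site 274 nt into its 3′ UTR. The log2 folds were 3.57 and 4.35 in the WT and mir-486 KO libraries of set 1, and 3.35 and 3.59 in those of set 2. Here the fold over input was the higher in mir-486 KO in both sets. Compared directly, the immunoprecipitated libraries gave a log2 WT over mir-486 KO of −0.33 in set 1 and 0.68 in set 2. In set 2 the 2 comparisons thus went opposite ways. Stim2, a calcium sensor of the endoplasmic reticulum that opens store-operated calcium channels, had a 7-nt site with log2 folds of 4.39 and 4.23 in set 1 and 3.11 and 3.52 in set 2. The folds of the genotypes overlapped at Stim2.

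The 19 sites enriched in 3 libraries were looked at after their values were seen, and 15 of them were 8-nt sites. The library in which they missed the thresholds was the mir-486 KO library of set 1 for 17 of them, with log2 folds there between 1.32 and 2.80, and the WT library of set 2 for the other 2, with 2.47 and 2.98. Gigyf1, a partner of the translational repressor 4EHP, had log2 folds of 4.64 and 1.65 in the WT and mir-486 KO libraries of set 1 and of 4.72 and 5.35 in those of set 2. Its mir-486 KO fold was the lower in set 1 and the higher in set 2.

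Pde7a, a cyclic AMP phosphodiesterase, had log2 folds of 4.06, 3.35, 2.98 and 3.97 (WT and mir-486 KO of set 1, then of set 2). Akap11, an anchor of protein kinase A, had 5.04, 1.80, 4.12 and 3.49 in the same order. Flvcr1, a haem exporter, was the one gene with a pair of separate sites in this group, and their folds ranged from 1.89 to 4.41. Asb15, a muscle-expressed adaptor of a ubiquitin ligase, had 3.02, 3.30, 2.47 and 3.29. Pde7a and Asb15 were thus the pair enriched in the mir-486 KO library of set 1 and not in the WT library of set 2.

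**Figure D4:**
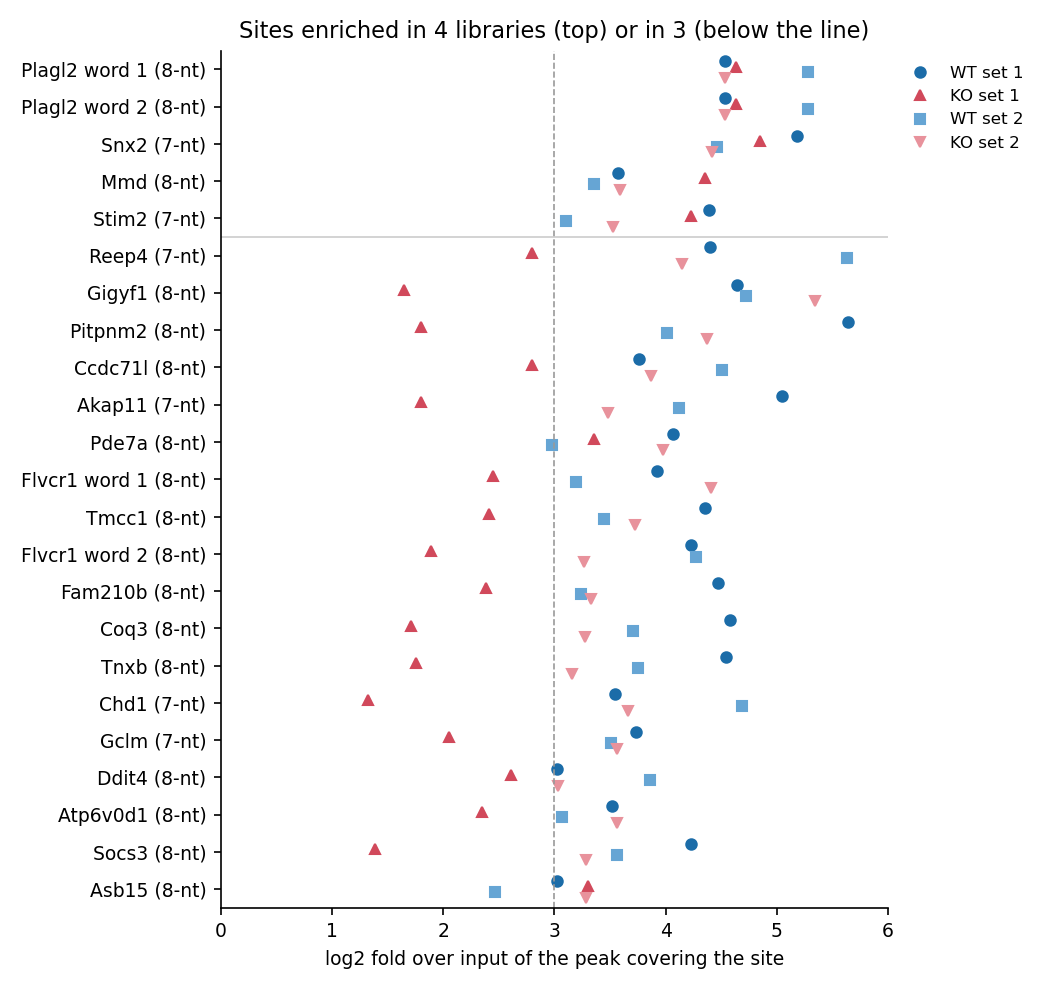
The log2 fold over input of the peak covering each site is plotted for the 5 sites enriched in all 4 libraries (top) and 18 of the 19 enriched in 3, with 1 symbol per library and the threshold of 3 as a dashed line. Below the horizontal line, the mir-486 KO library of set 1 (dark triangles) lies left of the threshold at 16 of the 18 sites drawn.

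Genes of the pathways were taken from lists and not from their folds. Of 28 genes known from the literature as miR-30 targets, 26 had a listed 3′ UTR peak, 19 of these also had the word in a 3′ UTR, and 13 had a miR-30 peak. That is 68.4% of the 19, where over all genes with both it was 1205 of 2131, or 56.5%. In 6 of the 13, at least 1 site was enriched in some library, and over all 1205 genes with a miR-30 peak in 145, or 12.03%. The list was chosen with results of these data known. Mbnl1, Mbnl2 and Mbnl3, splicing factors on the list, were not among the 13.

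Tnrc6a showed the most miR-30 sites of these genes. Its words 2 and 3 lay under 1 peak, with log2 folds of 2.43 in the WT library of set 1 and of 4.24 and 3.39 in the WT and mir-486 KO libraries of set 2. Word 1 had 3.27 in the WT library of set 1, 2.64 in the WT library of set 2 and 3.67 in the mir-486 KO library of set 2, and word 4 had 2.46, 1.87 and 3.13. The mir-486 KO library of set 1 had no miR-30 peak at any of the 4. The paralogues Tnrc6b and Tnrc6c each had at least 1 enriched site, with the highest log2 folds at 3.38 in the WT library of set 1 and 3.54 in the WT library of set 2.

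The SOCS genes, inhibitors of cytokine receptor signalling, were also among the 13. Socs3 had an 8-nt site with log2 folds of 4.23 and 1.38 in the WT and mir-486 KO libraries of set 1 and of 3.56 and 3.28 in those of set 2. Socs1 had 2.33 and 0.12 in set 1 and 4.06 and 3.63 in set 2. Both were lowest in the mir-486 KO library of set 1. Dll4, a Notch ligand, had an 8-nt site 61 nt into its 3′ UTR with 1.87 and 1.38 in set 1 and 3.68 and 1.17 in set 2. Camk2d, a calcium/calmodulin-dependent kinase, had 3.25 and 2.74 in set 1 and 1.86 and 2.16 in set 2. Mtdh, with 3 sites, stayed low: its mean log2 folds lay between −0.10 and 0.16.

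For the lists that follow, the comparison over all genes is that 2131 of 10455 genes with a 3′ UTR peak had the word (20.4%), 56.5% of these had a miR-30 peak, and 12.03% of those had an enriched site. Of 12 genes of the microRNA machinery, 7 had the word and a 3′ UTR peak, and all 7 had a miR-30 peak: Ago1, Ago2, Ago3, Ago4, Tnrc6a, Tnrc6b and Tnrc6c. Some of these 3′ UTRs are long and hold several words, as in Ago3 (12745 nt, 3 words) and Tnrc6b (11612 nt, 3 words). More words give a gene more chances of a miR-30 peak, which was not taken into account. Ago1 was covered in 1 library only, at a log2 fold of −0.13. The Ago genes had log2 folds of at most 2.06 and no enriched site, while each Tnrc6 gene had one. In the list of ubiquitin and autophagy genes, 8 of the 10 with a word had a miR-30 peak. Among them Atg12, which is conjugated to Atg5 when an autophagosome forms, was covered in all 4 libraries with log2 folds of 2.96, 2.84, 2.55 and 1.80. Fbxo32, the muscle atrophy ligase atrogin-1, was covered in set 2 only, with 1.05 in the WT and 1.51 in the mir-486 KO library. Ube2j1, a ubiquitin-conjugating enzyme of the endoplasmic reticulum, was the 1 gene of these 8 with an enriched site, a share near that of all genes, at 3.17 and 3.04 in the WT libraries of set 1 and set 2. Its log2 fold was 1.89 in the mir-486 KO library of set 1, and that of set 2 had no miR-30 peak there.

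Calcineurin and calcium signalling genes had the word in 4 of 18 and a miR-30 peak in the same 4, Ppp3r1, Nfatc2, Nfatc3 and Camk2d. Among the 10 muscle splicing regulators 5 had the word and a 3′ UTR peak, and 3 had a miR-30 peak (Celf2, Rbfox1 and Qk), a share near that of all genes, with 0 enriched. Of 14 sarcomere genes, 1 had the word: Neb, the giant protein that lines the thin filament. Its site was covered in all 4 libraries with log2 folds of −1.43, −1.36, −1.10 and −1.24, so its share of the reads was lower than in input in each.

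The genotypes were compared within each set. The share of 3′ UTR peaks with the word was 1.29 percentage points higher in WT in set 1 and differed by −0.0657 points (WT minus mir-486 KO) in set 2, a mean of 0.614 ± 0.961 (SD, n = 2 sets). The enriched share of miR-30 peaks was 8.56 points higher in WT in set 1 and differed by −0.381 points in set 2, a mean of 4.09 ± 6.32. With 2 libraries per genotype no exact permutation test can go below a p of 0.33, and none was made. The differences of set 1 were thus not found in set 2. The mir-486 KO library of set 1 had the lowest value of all 4 libraries in both respects. Counted per 1000 nt of scanned sequence, the word occurred 0.318 times in WT and 0.216 times in mir-486 KO of set 1. In set 2 it occurred 0.223 times in WT and 0.233 times in mir-486 KO. By that count the WT library of set 1 was the one that stood apart. In whole muscle, fewer cells of a type and less RNA per cell cannot be told apart.

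Between genotypes of 1 set, 83.4% of the miR-30 peaks of the WT library of set 2 overlapped a listed peak of the mir-486 KO library, against 66.5% of other 3′ UTR peaks, and 84.2% against 68.7% in the opposite direction. In set 1 the shares were 62.5% against 52.5% and 72.7% against 42.9%. Most miR-30 peaks of both sets thus overlapped a listed peak of the other genotype, with higher shares in set 2. Longer peaks overlap more easily here too.

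The authors also deposited lists that compare the immunoprecipitated libraries directly, the WT library over the mir-486 KO library at the WT peaks and the reverse at the mir-486 KO peaks. Each list holds only the peaks called in the library named first, so the WT and mir-486 KO lists of a set are not mirror images. In set 1, 9 of 714 miR-30 peaks were past both thresholds in WT over mir-486 KO, where 0.469% of all listed peaks and 0.385% of other 3′ UTR peaks were, and 0 of 593 in mir-486 KO over WT, where 0.179% of all listed peaks were. In set 2, 1 of 1049 was past them in WT over mir-486 KO, where 0.0192% of all listed peaks were, and 0 of 1049 in the reverse list, where 0.0144% were. The median log2 WT over mir-486 KO of miR-30 peaks was 0.69 in set 1, against 0.53 at other 3′ UTR peaks, and 0.20 in set 2, against 0.31. In mir-486 KO over WT it was −0.16 in set 1, against 0.43, and −0.12 in set 2, the same as at other 3′ UTR peaks. The difference between miR-30 peaks and the others was thus 0.16 in set 1 and −0.11 in set 2 for WT over mir-486 KO.

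Of the 9 peaks of set 1, 8 are described here, in Ddit4, Socs3, Osmr, Ip6k3, Prune2, Adamts9, Htra1 and Mt1, and the folds of the same sites in set 2 were small. Ddit4, an inhibitor of the growth kinase mTORC1, had a log2 WT over mir-486 KO of 3.37 in set 1 and 0.31 in set 2. Socs3 had 4.10 and 0.21. Adamts9, a secreted protease, had 4.55 and 0.98, and Mt1, a metal-binding metallothionein, 5.54 and 0.76. The folds of Htra1, Ip6k3, Osmr and Prune2 were between 3.04 and 3.88 in set 1 and between −0.31 and −0.05 in set 2. So 4 of these 8 were above 0 in both sets and 4 were not. Osmr and Prune2 had the same log2 fold in set 1, 3.16, and the same −log10 p, 3.33, both near the thresholds. The 1 peak of set 2 lay in Gm4841, with a log2 fold of 3.29.

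At the 588 sites with a WT miR-30 peak in both sets, the log2 WT over mir-486 KO folds of the sets were not related: Pearson's r was −0.0591 and Spearman's rho −0.107, given as a description over sites of 4 libraries. These sites were chosen by peaks called in WT. In the WT over mir-486 KO lists, 78.3% of miR-30 peaks and 71.9% of other 3′ UTR peaks were above 0 in set 1. In set 2 the shares were 67.0% and 73.1%. Counts over both sets are not given for other 3′ UTR peaks, so those that follow are a description only. Both folds were above 0 at 282 sites and below 0 at 40, and 9 sites were at 1 or more in both sets and 0 at −1 or less in both. The 9 were looked at after their values were seen. They include Stbd1, which tethers glycogen to membranes, with 1.60 in set 1 and 1.5 in set 2, below the threshold in both. The sites enriched over input in all 4 libraries had 1.04 and −0.12 (Plagl2), 0.42 and 0.92 (Snx2), −0.33 and 0.68 (Mmd), and 1.73 and 0.02 (Stim2), in set 1 and set 2.

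**Figure D5:**
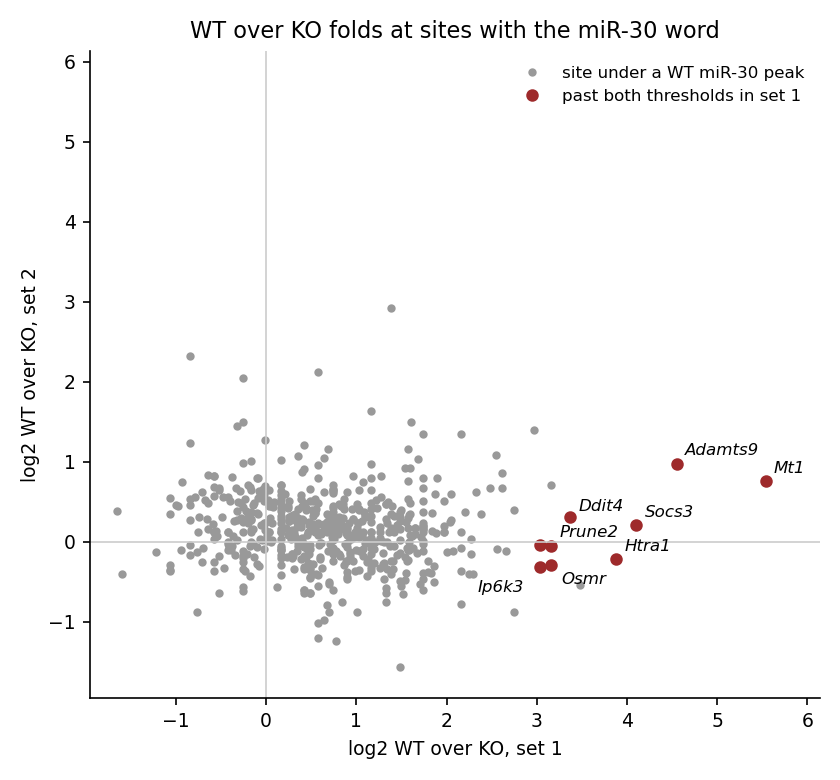
Each point is 1 of the 588 sites with a WT miR-30 peak in both sets, with its log2 WT over mir-486 KO fold in set 1 on the x axis and in set 2 on the y axis. The 9 sites past both thresholds in set 1 (red) reach 5.54 on the x axis and no more than 0.98 on the y axis.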

How the data were processed

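AGO2 chimeric eCLIP peaks of 4 total immunoprecipitated libraries were used, 1 WT and 1 mir-486 KO library in each of 2 sets. Per the study's methods and the submitters' processing notes, the authors trimmed reads with cutadapt, aligned them with STAR, called peaks with CLIPper in each library separately, and normalised them to input. For each peak the authors deposited a log2 fold between 2 libraries, each scaled to its own library, and the −log10 of a p-value, with 400 as the highest value written. No read counts were given, so depth is unknown, and so is the number of reads that a fold rests on. These folds and p-values were used as deposited.

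Coordinates are GRCm38, 1-based. 3′ UTRs were those of GENCODE release M21, which is older than the release in the labels but describes the same assembly. Words were searched on the peak strand in the reference sequence of the peak extended by 25 nt. Their 209 permutations served as a description, with no p. A site's value in a library is the highest log2 fold among its miR-30 peaks there. Enriched peaks had a deposited log2 fold and a deposited −log10 p that both reached 3. Differences per library were compared over 4 libraries by a two-sided exact sign-flip permutation test, whose smallest p is 0.13. Peaks are not replicates. Wilson intervals (95%) cover counting error only.

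The members, lists and thresholds were chosen with earlier results of these data known. The genes and sites named are those enriched in all 4 libraries, listed genes with a miR-30 peak, peaks past the thresholds in a direct list and the Mir30 genes. No gene had 3 or more sites covered in all 4 libraries. Other names were chosen after their values were seen, as stated there. Some genes are not reported here. The search, region and overlap functions were tested on simulated data. Python 3.11.15, NumPy 2.4.6, pandas 2.3.3 and SciPy 1.17.1 were used.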

Additional observations from a re-analysis of the deposited data

Results flagged for a closer look

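In 3 genotype comparisons of miR-30 peaks, set 1 and set 2 moved in opposite directions, and the difference between the sets was not tested. The share of 3′ UTR peaks with the miR-30 word was higher in WT by 1.29 percentage points in set 1 and differed by −0.0657 points (WT minus mir-486 KO) in set 2. The enriched share of miR-30 peaks was higher in WT by 8.56 points in set 1 and differed by −0.381 points in set 2. The median log2 WT over mir-486 KO of miR-30 peaks minus that of other 3′ UTR peaks was 0.16 in set 1 and −0.11 in set 2.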

How the results depend on the processing

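Of 87 alternatives, 84 kept the sign of the value and 3 turned it, and 18 moved it by more than 1 SD over libraries or sets. The exact tests over 4 libraries cannot pass the threshold and say nothing on stability. The mean share of 3′ UTR peaks with the miR-30 word, 3.45%, was 2.00% for the 8-nt word, 5.46% for the 6-nt word of positions 2 to 7, 8.74% for that of positions 3 to 8, 2.61% without extension, 4.06% with an extension of 50 nt and 2.75% where 3′ UTR was read before coding sequence. Mean recurrence between sets, 73.5%, was 36.3% where 50% of both peaks had to overlap. The place of the word, a median of 51.2 nt from the 5′ end of the peak, was 0.625 nt from the midpoint when taken at the word's middle base. The mean difference between miR-30 and other 3′ UTR peaks in median log2 WT over mir-486 KO, 0.02, was 0.29 from the mir-486 KO peaks with the sign turned. With set 2 alone, 3 results reversed: the WT minus mir-486 KO difference in share (−0.0657 points), in enriched share (−0.381 points) and in median direct fold (−0.11). Leaving out 1 library at a time moved the mean share between 3.27% and 3.70%, the enriched difference between 3.07 and 4.57 points, the difference in median log2 fold between 0.52 and 0.61, and the 8-nt minus 7-nt difference between 1.88 and 3.89 points. A log2 threshold of 1 gave an enriched difference of 9.77 points (main value 3.61) and an 8-nt minus 7-nt difference of 7.50 points, and a threshold of 4 gave an enriched difference of 1.30 points. With each gene counted once the enriched difference was 0.524 points. The difference in median log2 fold, 0.56, was 0.76 for the 8-nt word, 0.30 for the word of positions 3 to 8, 0.31 against peaks of the same genes, 0.40 within classes of peak length and 0.15 with each gene counted once. Genotype differences were paired within sets, whose numbers name library sets. With no replicate block the means are the same by construction, and the SD of the difference was 0.706 instead of 0.961 points for the share (0.614 points) and 4.58 instead of 6.32 points for the enriched share (4.09 points).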
